A study of Oryza sativa with 16 samples.

Results

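Cytokinin is a plant hormone that promotes cell division and shoot growth. It is sensed by membrane histidine kinases, which pass phosphate through small phosphotransfer proteins to response regulators in the nucleus. Type-B response regulators switch on target genes, and type-A response regulators, which are themselves early targets, dampen the signal. The genes described here were higher in rice seedlings given the synthetic cytokinin BAP (benzyl aminopurine) than in water controls and stayed under a set limit with each of 5 other hormones.

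The members were 52 probe sets of 57194 rice probe sets on the Affymetrix rice array. A probe set, the unit that the array measures, was chosen if both BAP arrays lay at least 0.8 log2 units above the highest of the 4 control arrays and above a log2 value of 5. The mean of each other hormone also had to lie less than 0.5 above that highest control. The margin was met by 144 probe sets, the margin and floor by 121, and the cap on the other hormones as well by 62. Left out of these 62 were 10 probe sets of named families, among them response regulators and cytokinin oxidases. The levels under BAP, under the other hormones and in the controls decided which probe sets were chosen: the members were selected on these values, and their rise under BAP is given as a description with no test.

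The seedlings were Oryza sativa subspecies indica, variety IR64, 7 days old, from hydroponic culture with 14 h light and 10 h dark. They were incubated for 3 h in a solution of 1 hormone or in water, which was the control. BAP and the auxin IAA (indole-3-acetic acid) were used at 50 µM. ABA (abscisic acid), the ethylene precursor ACC, SA (salicylic acid) and JA (jasmonic acid) were used at 100 µM. Each hormone had 2 biological replicate arrays, and water had 2 sets of 2 arrays, labelled control1 and control2, for 16 arrays of whole-seedling RNA in all. Which control set belonged to which hormone was not stated. Whether replicates came from separate cultures was not stated either, so p-values measure the spread between these arrays only.

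Array medians lay between 2.94 and 3.09, and the number of arrays limits the precision. The arrays were not technically uniform. The 5′ minus 3′ difference of the poly-A spike-ins ran from -1.56 to -1.22 log2 units in BAP, IAA and control1 and from -1.17 to -0.63 in the rest. The 3′ minus 5′ difference of an actin transcript, a sign of RNA quality, ran from 3.32 to 3.71 in BAP, IAA and control1 and from 3.90 to 4.45 in the rest. The poly-A gap was narrow, since the nearest arrays, of IAA and SA, read -1.22 and -1.17. The mean of the hybridization spike-ins was 10.7 in BAP, 10.7 in ABA, 10.7 in IAA and 10.6 in control1, and between 11.7 and 12.3 in the other groups. BAP, IAA and control1 lay together on all 3 measures, and ABA lay with them on the hybridization spike-ins only. Differences from control1 alone are therefore given for the members together and for many single members.

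Of the 52 members, 33 had 1 gene in the platform annotation and 19 had none listed there. The 33 were 33 different genes, all protein-coding in RefSeq, and RefSeq gave 3 of them a gene name: HK4, CIN1 and CPD2. The other members with a gene are given by gene identifier. Members with no gene listed are described by their values, and the heat map of all members carries their probe set identifiers. A gene was listed for 63.5% of the members and for 72.2% of all 24100 tested probe sets. Probe sets ending in _x_at, whose probes can also bind similar transcripts, made up 9 of 52 members (17.3%) and 13.3% of all tested probe sets.

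The median level of the members was 9.14 under BAP and 7.31 in the controls. The difference of the BAP mean from the mean of the 4 controls had a median of 1.81 log2 units, or 3.51-fold, and ran from 0.97 to 3.68 (1.96-fold to 12.8-fold). In 51 of 52 members it was at least 2-fold. Against control1 alone the median was 1.46 log2 units, with a range of 0.87 to 3.60, and against control2 alone 1.97, with a range of 0.99 to 4.03. A linear model with adjustment over all tested probe sets called 45 of the 52 members higher under BAP, and 0.817% of all tested probe sets. The rule used this contrast, so nothing is read from the count.

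**Figure D1:**
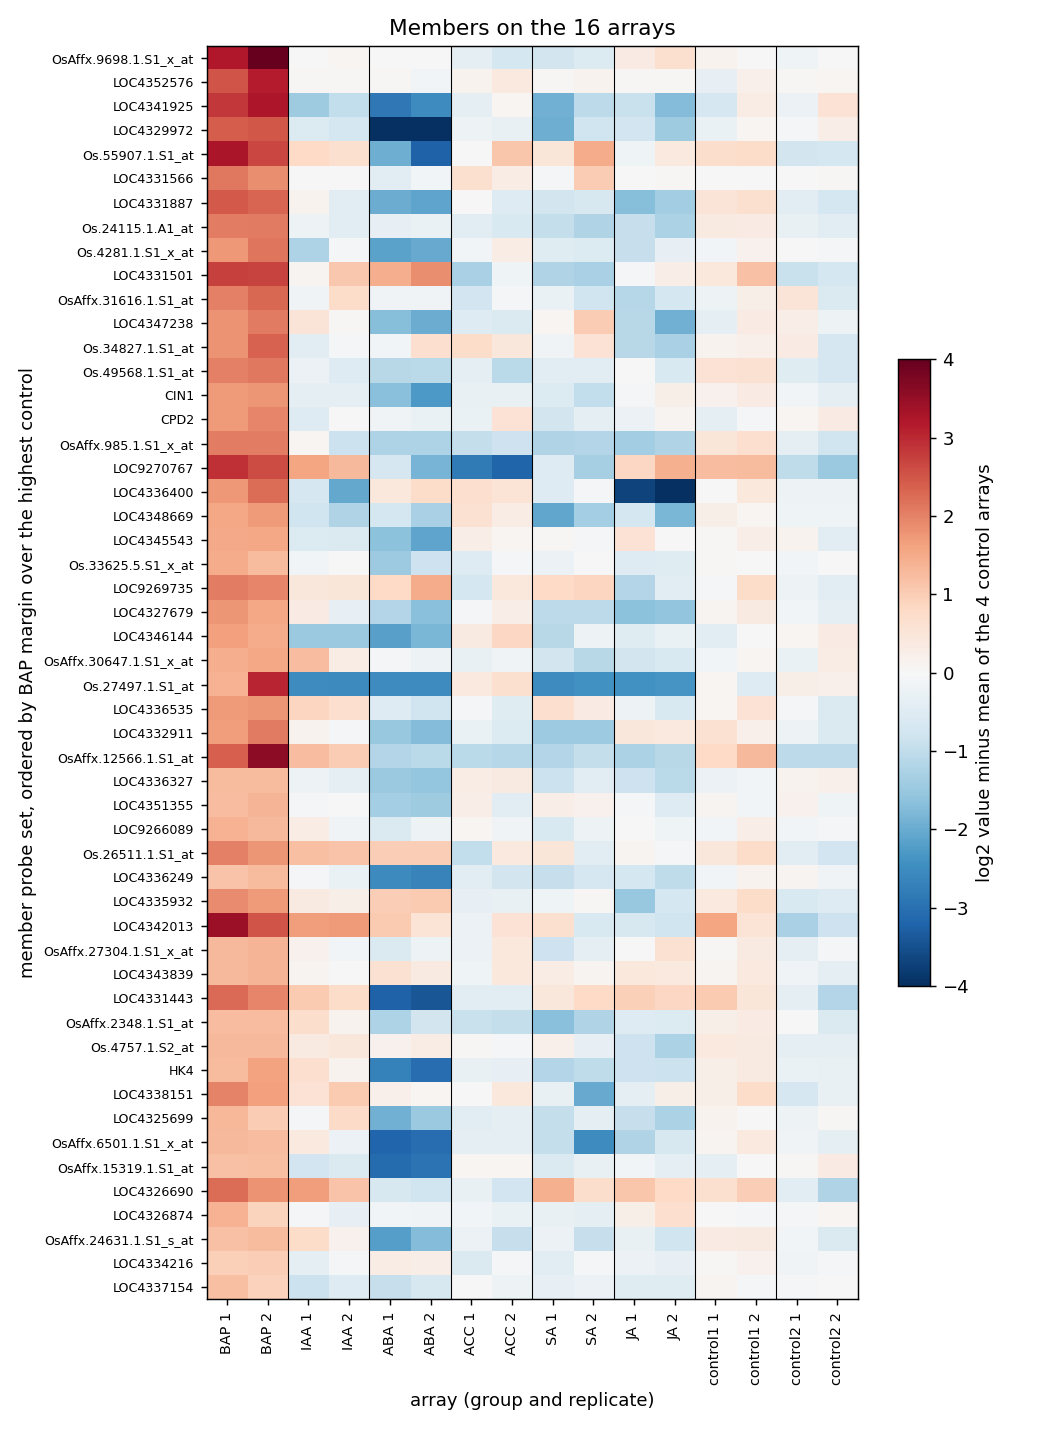
Heat map of the 52 members (rows, by margin over the highest control) on the 16 arrays (columns), as log2 value minus the mean of the 4 control arrays. The BAP columns are positive in every row because the rule chose them so. Among the other hormones ABA has the most members below every control on both arrays, 31 of 52. ABA also has the highest such share over all tested probe sets, 34%.

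The member closest to cytokinin signalling was HK4 (LOC4333916), a histidine kinase that acts as a cytokinin receptor. HK4 had log2 values of 9.77 and 10.13 under BAP, against 8.73 and 8.88 in control1 and 8.24 and 8.20 in control2. Both BAP arrays lay above all 4 controls, with a mean difference of 1.44 ± 0.22 (n = 2 BAP and 4 control arrays), or 1.14 against control1. Each ± value here is a standard error from the linear model. Its spread is estimated over all 16 arrays and drawn towards that of other probe sets. Under the other hormones HK4 stood at 9.17 and 8.66 in IAA, 5.82 and 5.48 in ABA, 8.22 and 8.20 in ACC, 7.35 and 7.50 in SA, and 7.67 and 7.64 in JA. The ABA arrays were the lowest of the 16 for this receptor gene, and the SA and JA arrays also lay below every control.

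CIN1 (LOC4329561) encodes a cell wall invertase, an enzyme that splits sucrose outside the cell. It had log2 values of 13.81 and 13.87 under BAP, against 12.26 and 12.42 in control1 and 11.99 and 11.74 in control2. The difference was 1.74 ± 0.20. The other hormones gave 11.74 and 11.73 in IAA, 10.43 and 9.79 in ABA, 11.81 and 11.81 in ACC, 11.54 and 11.13 in SA, and 12.04 and 12.33 in JA. ABA again gave the lowest pair, and the JA pair lay within the range of the controls.

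CPD2 (LOC4351461), listed also as CYP90A4, belongs to a cytochrome P450 family of brassinosteroid synthesis. Its values were 10.29 and 10.55 under BAP, against 8.21 and 8.56 in control1 and 8.68 and 8.93 in control2, a difference of 1.83 ± 0.25 (2.04 against control1). The other hormones held it between 7.87 (SA) and 9.18 (ACC). Unlike HK4 and CIN1, CPD2 was not below the controls in ABA, at 8.46 and 8.31.

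The largest margin over the highest control was that of an _x_at probe set with no gene listed. It had 8.33 and 9.28 under BAP, against 5.26 and 5.15 in control1 and 4.94 and 5.15 in control2, which made a difference of 3.68 ± 0.23 and a margin of 3.07. All 10 arrays of the other hormones lay between 4.39 and 5.78, so this probe set was near the floor everywhere but under BAP.

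LOC4352576 had 6.07 and 6.70 under BAP, against 3.23 and 3.76 in control1 and 3.63 and 3.65 in control2, a difference of 2.82 ± 0.20. The other hormones lay between 3.46 and 3.97, so only the BAP arrays were above the floor. LOC4331566 was of the same kind, with 5.32 and 5.07 under BAP, against 3.19 and 3.18 in control1 and 3.22 and 3.24 in control2. In all, 5 members had no array but those of BAP above the floor. These 5 entered the tested set through the group in which they were high, and their sizes depend on the lowest values of the scale.

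LOC4341925 showed the largest difference among members with a gene. It had 10.21 and 10.62 under BAP, against 6.73 and 7.69 in control1 and 7.17 and 7.97 in control2, a difference of 3.02 ± 0.37. It stood at 7.04 and 7.47 in ACC, inside the control range, and lower in the others, at 5.95 and 6.41 in IAA, 4.53 and 4.86 in ABA, 5.47 and 6.33 in SA and 6.51 and 5.64 in JA. All 8 arrays of those 4 hormones lay below the lowest control.

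LOC4329972, measured by an _x_at probe set, had 12.43 and 12.52 under BAP, against 9.75 and 10.11 in control1 and 9.97 and 10.28 in control2, a difference of 2.45 ± 0.28. It stood at 9.47 and 9.31 in IAA, a mean of 5.84 in ABA, 9.84 and 9.73 in ACC, 8.07 and 9.23 in SA, and 9.25 and 8.59 in JA. The order of the groups was like that of LOC4341925, with BAP highest, the controls and ACC together, and ABA lowest.

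Further large differences were found for a probe set with no gene listed (2.98 ± 0.53, 2.25 against control1), LOC4331501 (2.72 ± 0.52, 1.92 against control1) and LOC4331887 (2.40 ± 0.35, 1.82 against control1). These 3 had lower values in control2 than in control1, which widened the difference from all 4 controls. Another member with no gene was higher by 2.06 ± 0.22, with 11.22 and 11.23 under BAP, against 9.53 and 9.50 in control1 and 8.87 and 8.74 in control2 (1.71 against control1). An _x_at probe set with no gene was higher by 1.94 ± 0.28, with nearly equal control sets (1.91 against control1). All 5 were among the 10 members of largest margin.

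**Figure D2:**
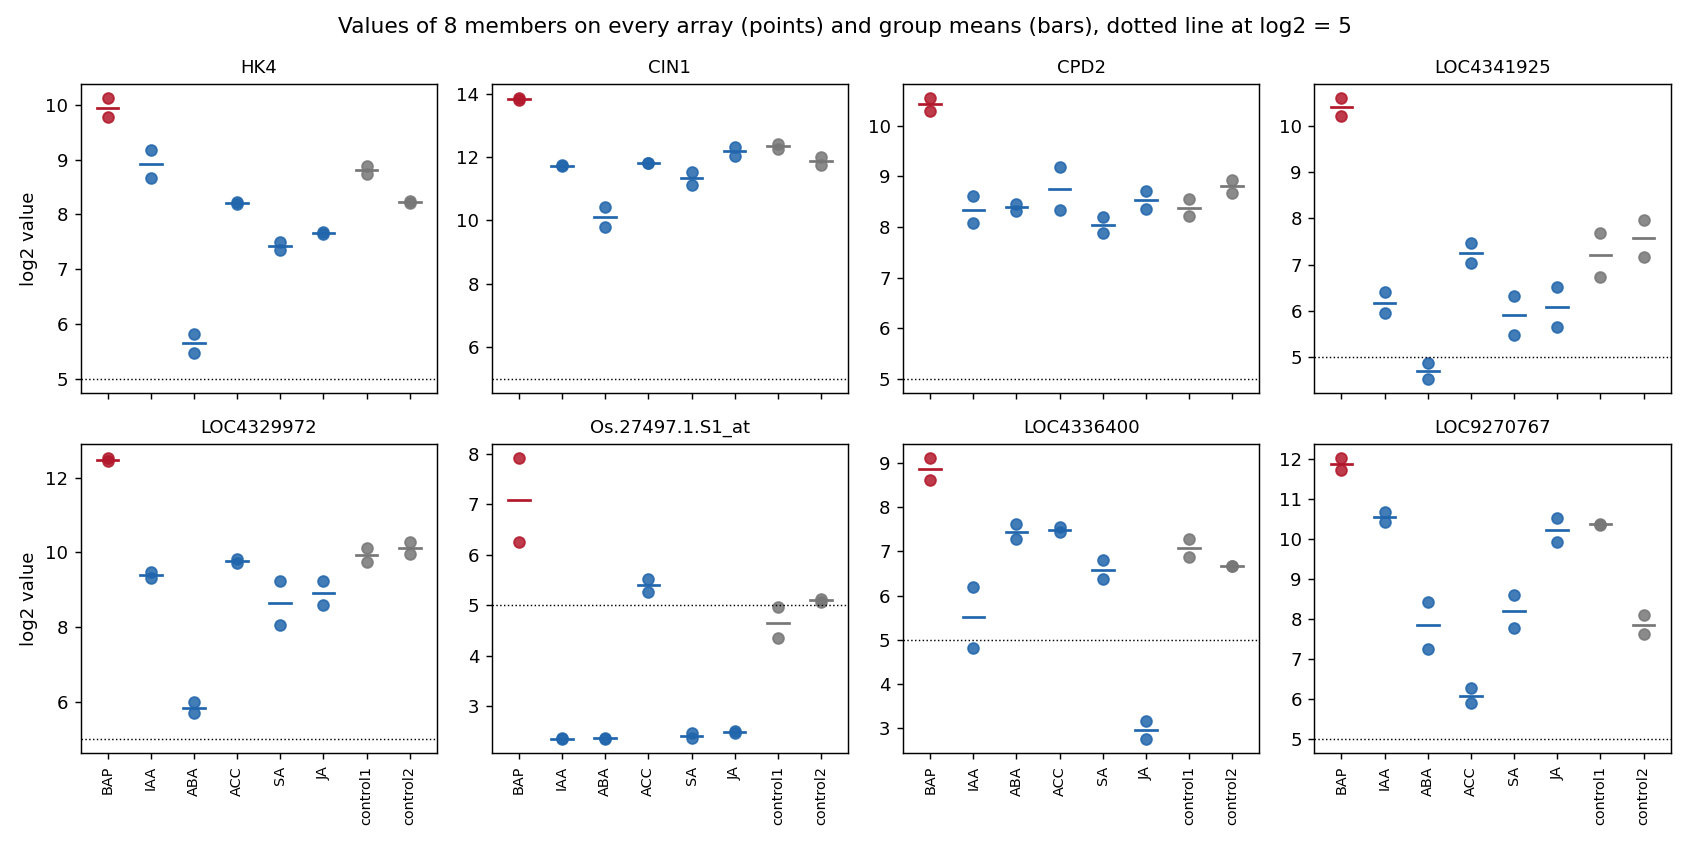
Log2 values of 8 members on each array (points) with group means (bars), BAP in red, other hormones in blue and controls in grey, and a dotted line at the floor of 5. HK4, CIN1, LOC4341925 and LOC4329972 were lowest in ABA, the probe set with no gene (lower row, second panel) lay between 2.34 and 2.51 in IAA, ABA, SA and JA, LOC4336400 was lowest in JA, and LOC9270767 was lowest in ACC.

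Next to BAP, the hormone with the highest mean was IAA for 21 members, ACC for 14, JA for 7, ABA for 6 and SA for 4. The BAP mean exceeded that next hormone by a median of 1.25 log2 units, with a range of 0.62 (LOC4326690, next to IAA) to 3.19 (the probe set of largest margin, next to JA). The 2 BAP arrays differed from each other by a median of 0.20 log2 units, and the second was the higher in 29 of 52 members. The largest gap between them was 1.66, for a probe set with no gene listed, at 6.26 and 7.92.

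Just inside the margin of 0.8 lay LOC4337154 (0.80), LOC4334216 (0.81) and a probe set with no gene (0.81), and just outside it PUT1 (LOC4330433, 0.78), LOC4338925 (0.78) and a second probe set of LOC4336249 (0.76). The lower BAP array was nearest the floor inside the rule for LOC4331566 (5.07), followed by 2 probe sets with no gene (5.43 and 5.61). Outside the floor the nearest were 3 probe sets with no gene (4.88, 4.64 and 4.62). The cap was most nearly reached by LOC4331501, whose ABA mean lay 0.48 above the highest control, by a probe set with no gene (IAA, 0.47) and by LOC4331566 (SA, 0.46). It was just exceeded by LOC4336228 (ACC, 0.55), LOC4344338 (IAA, 0.55) and a probe set with no gene (IAA, 0.59). Of the 56 probe sets that failed only the cap, 28 exceeded it in ABA, 18 in IAA, 15 in JA, 11 in SA and 9 in ACC, some in several.

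A few member genes had further probe sets, which the same arrays measured with other probes. LOC4327679, a member through 1 probe set (6.55 and 6.33 under BAP, against 4.90, 5.13, 4.67 and 4.42 in the controls), was also measured by a second, which gave 10.96 and 11.16 under BAP, against 9.66, 9.90, 9.77 and 9.67 in the controls, a difference of 1.31. It was no member because ACC, at 10.60 and 10.48, exceeded the cap. LOC4336249, a member through 1 probe set (9.55 and 9.67 under BAP, against 8.30, 8.54, 8.50 and 8.28 in the controls), differed by 1.59 on an _x_at probe set. The third probe set of LOC4336249 lay under the floor on every array.

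LOC4338151 had 6 probe sets in all. The member read 8.03 and 7.69 under BAP, against 6.31 and 6.80 in control1 and 5.38 and 5.76 in control2, a difference of 1.80 ± 0.45 (1.31 against control1). The other 5, which lay between 13.01 and 15.38 on all arrays, differed by 0.34 to 0.89 log2 units. The size for this gene thus depended on the probe set, and the part of their high signal in this was not tested. For LOC4331443 the member differed by 2.11 ± 0.44 (1.34 against control1). Its second probe set, an _x_at, differed by 0.25 (0.26 against control1). That probe set lay between 5.25 and 5.89 on all arrays, close to the floor, so its small difference says little about the gene. For LOC4347238 the second lay under the floor on every array.

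The control sets were compared next, because BAP lay with control1 on the spike-in and RNA quality measures. The rule used the control arrays, since BAP had to clear the highest of them, so these counts describe the members and support nothing. Values were lower in control2 than in control1 at an adjusted p under 0.05 (limma, 8 groups) for 16 of 52 members (30.8%), beside 11.9% of all tested probe sets. None was called higher in control2, beside 9.2% of all tested. The median control2 minus control1 difference was -0.42 log2 units over the members and -0.01 over all tested probe sets. The count was 10 without control1 replicate 1, 6 without control1 replicate 2 and 6 without control2 replicate 2. The highest control array lay in control1 for 39 of the 52 members. BAP lay with control1 on the spike-in and RNA quality measures, and control2 did not. For the 16 members lower in control2, the treatment and the technical differences thus cannot be told apart in the difference from all 4 controls. Against control1 alone, the 16 stood at least 0.92 log2 units higher under BAP, as the margin of the rule requires.

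LOC9270767 had the widest gap between the control sets, at 8.12 and 7.62 in control2, against 10.35 and 10.39 in control1 (-2.50 ± 0.37). BAP gave 12.03 and 11.72, which is 1.51 above control1 and 4.01 above control2. LOC4342013 had 2.62 and 3.08 in control2, against 5.48 and 4.43 in control1 (-2.11 ± 0.47), and 7.34 and 6.42 under BAP. A probe set with no gene was high in BAP, IAA and control1 and near the bottom of the scale elsewhere, with 5.96 and 7.16 in BAP, 4.83 and 4.60 in IAA, and 2.32 to 2.64 in ABA, ACC, SA and JA, against 4.37 and 4.89 in control1 and 2.52 and 2.54 in control2. LOC4326690, LOC4331501 and LOC4331443 were lower in control2 by 1.54 to 1.62 log2 units, and under BAP they stood 1.21 (LOC4326690), 1.92 (LOC4331501) and 1.34 (LOC4331443) above control1. HK4 was also among the 16, with the narrowest gap (-0.58 ± 0.19).

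**Figure D3:**
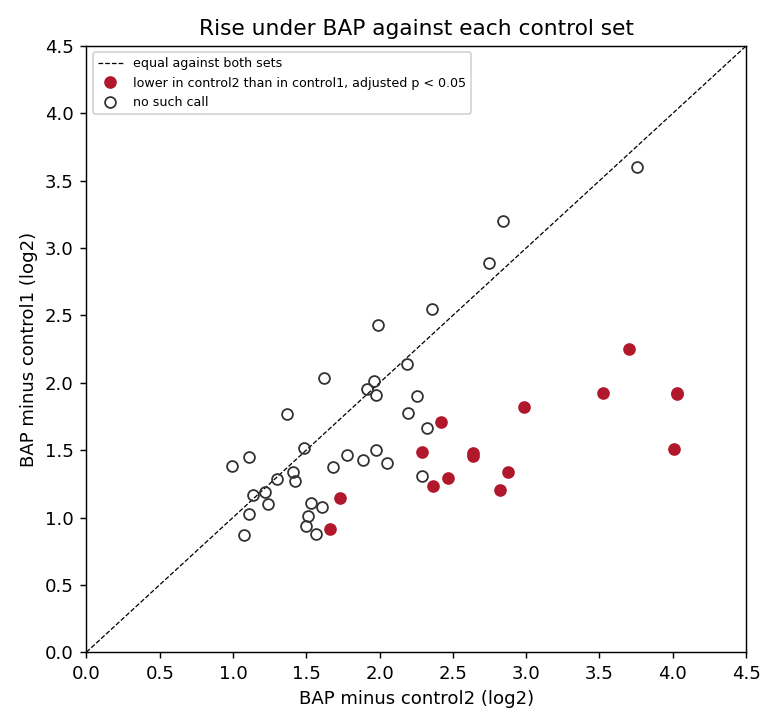
Difference of the BAP mean from control1 (vertical) and from control2 (horizontal) for the 52 members, in log2 units, with a dashed line where both are equal. The 16 members called lower in control2 (red) lie under the line, and all members lie at 0.87 or more above control1.

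The members were also compared among ABA, ACC, SA and JA. The rule capped each of these means from above and removed probe sets high in ABA more often than those high in ACC (28 and 9 of the 56 that failed only the cap). All counts and differences among these hormones are therefore a description of the chosen members, and nothing is read from their distance to the share of all probe sets. At adjusted p under 0.05 by limma's F test 37 of 52 members (71.2%) were called, beside 41.1% of all tested probe sets. Of the 52, 9 had fewer than 2 of these 8 arrays above the floor. Among the 10 left-out probe sets of named families, 8 were called.

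Members stood low most often in ABA, and so did all tested probe sets. Both ABA arrays lay below every control for 59.6% of members, beside 34% of all tested. For JA these shares were 48.1% and 14.8%, and for SA 44.2% and 18.1%. At adjusted p under 0.05, 24 of 52 members (46.2%) were lower in ABA than in ACC, beside 22.3% of all tested probe sets, and 4 were higher, beside 18.4%. The median ABA minus ACC difference was -0.43 over the members, -1.13 over the 10 named-family probe sets and -0.07 over all tested. ABA and ACC also differed in the hybridization spike-ins (10.7 and 12.0), which cannot be told apart from the treatment. The ABA minus ACC difference was -3.94 log2 units for LOC4329972, the largest, followed by 3 members with no gene (-3.15, -3.08 and -3.03). It was -2.56 for HK4, -1.70 for CIN1 and -2.56 for LOC4341925.

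The member at -3.08 lay at 5.68 and 5.82 in ABA, against 8.83 and 8.84 in ACC, and the pairs of SA (8.18 and 8.46) and JA (8.66 and 8.42) stayed close to ACC. LOC4331443 had 7.17 and 6.98 in ABA, against 9.97 and 10.00 in ACC (-2.91 ± 0.51), with 10.88 and 11.22 in SA and 11.35 and 11.23 in JA. For these members ABA stood apart from all 3 other hormones.

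The 4 members that were higher in ABA than in ACC were LOC4331501 (2.39 ± 0.60), LOC4335932 (1.31 ± 0.39), LOC9269735 (1.28 ± 0.42) and LOC4334216 (0.60 ± 0.18). LOC4331501 had 8.20 and 8.58 in ABA, against 5.42 and 6.56 in ACC, and 9.46 and 9.45 under BAP. In all 4 of these genes both ABA arrays lay above all 4 controls. The ABA mean lay above the highest control by 0.48 (LOC4331501), 0.39 (LOC9269735), 0.28 (LOC4335932) and 0.12 (LOC4334216). These genes passed the rule only because the cap allows a mean up to 0.5 above that control. Other members did the same under another hormone, such as LOC4326690 and LOC4336535 in IAA and LOC4326874 in JA. Members above every control were not counted for each hormone.

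Fewer members were called for SA and JA against ACC, and the cap on all 3 means bears on these counts as well. Lower in SA were 5 of 52 members (9.62%), beside 1.56% of all tested probe sets, and none was called higher, beside 2.6%. Lower in JA were 6 members (11.5%), beside 1.33%, and 1 was higher, beside 1.95%. The SA count was 2 without ACC replicate 1, 2 without ACC replicate 2 and 2 without SA replicate 1. The JA count, both directions together, was 7, and it was 4 without ACC replicate 1, 3 without ACC replicate 2 and 3 without JA replicate 2.

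**Figure D4:**
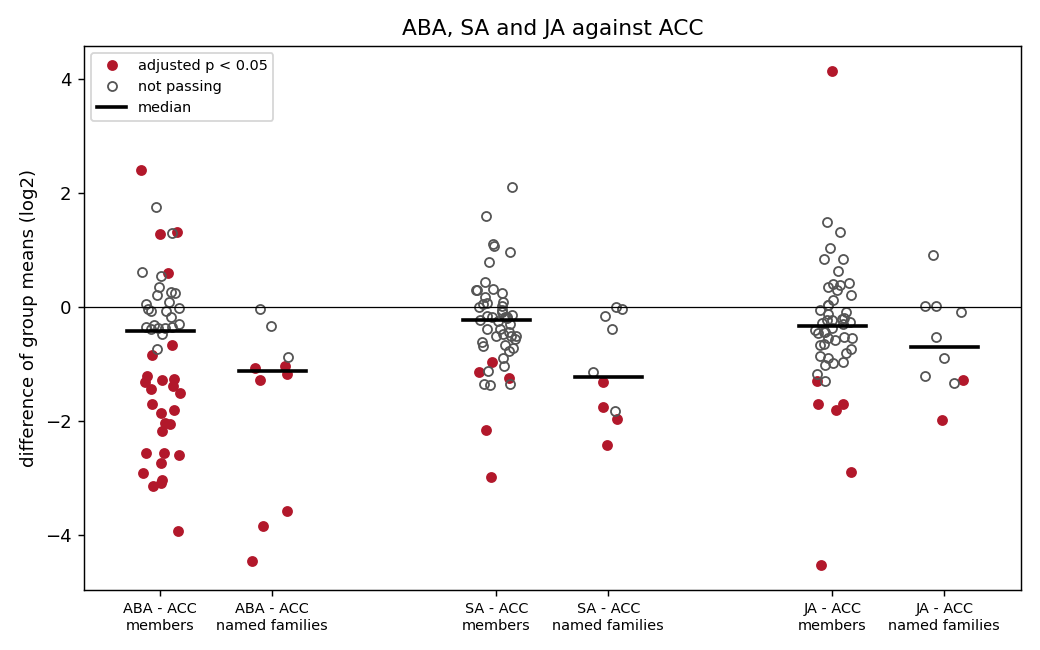
Difference of the ABA, SA and JA means from the ACC mean (vertical, log2) for the 52 members and the 10 probe sets of named families left out by the rule, with red points at adjusted p under 0.05 and bars at the median. The member medians were -0.43 for ABA, -0.24 for SA and -0.33 for JA.

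Lower than ACC in all of ABA, SA and JA were 4 members, beside 87 of 24100 tested probe sets (0.361%). The first, with no gene listed, had 6.26 and 7.92 under BAP, 5.27 and 5.51 in ACC, and 2.34 to 2.51 on all 8 arrays of IAA, ABA, SA and JA, against 4.96 and 4.35 in control1 and 5.13 and 5.07 in control2. It was at the bottom of the scale under 4 hormones and near the floor in water and ACC, so its folds depend on the background correction. LOC4348669 had 9.07 and 9.22 under BAP and 8.12 and 7.81 in ACC, with 6.83 and 6.23 in ABA, 5.45 and 6.17 in SA and 6.83 and 5.70 in JA, against 7.77, 7.59, 7.37 and 7.36 in the controls. LOC4336327 had 12.49 and 12.48 under BAP and 11.52 and 11.58 in ACC, with 9.72 and 9.65 in ABA, 10.36 and 10.79 in SA and 10.37 and 10.12 in JA, against 10.96, 11.11, 11.34 and 11.42 in the controls. In both genes every ABA, SA and JA array lay below every control and every ACC array above. The fourth was LOC4327679, whose ABA, SA and JA arrays lay between 3.10 and 3.73.

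LOC4336400 and LOC9270767 had the largest differences between JA and ACC, in opposite directions. LOC4336400 had 3.17 and 2.75 in JA, against 7.56 and 7.43 in ACC (-4.53 ± 0.38), and 8.61 and 9.11 under BAP. Its JA arrays were the lowest of the 16, and the ABA arrays (7.29 and 7.61) overlapped those of ACC. LOC9270767 had 9.93 and 10.54 in JA, against 6.29 and 5.90 in ACC (4.14 ± 0.81). The control sets of this gene differed by 2.50, so its level in water was itself unsettled. That gap also enters the ± value, since the model took both control sets as 1 group.

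Set beside the controls, with no test, both arrays lay below the lowest control for 31 members in ABA (34% of all tested probe sets did so), 25 in JA (14.8%), 23 in SA (18.1%), 11 in IAA (14%) and 9 in ACC (9.92%). The cap favours low values, so these counts are a description. In 13 members this held for ABA, SA and JA together (5.59% of all tested), and in 10 of these 13 it did not hold for ACC (3.64%). In 9 members it held for no hormone (47.4%).

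The rest of the cytokinin pathway gives the setting of HK4. The lists were written from gene symbols with earlier results known. Of the 3 receptor genes measured, HK4 is described above as a member. HK3, also a receptor, had 10.71 and 10.99 under BAP, against 11.40, 11.53, 11.06 and 11.22 in the controls (-0.45 ± 0.16, adjusted p = 0.229). HK5, the other receptor gene measured, differed by -0.59 ± 0.13 (adjusted p = 0.0519). Whether HK4 differed from HK3 and HK5 in its response was not tested.

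Downstream, none of the 3 measured phosphotransfer genes and none of the 4 measured type-B response regulators passed the test under BAP. All 6 measured type-A response regulators rose, by 2.21 (RR2) to 3.99 (RR1). Of the 4 tested cytokinin oxidases, which break cytokinin down, CKX3, CKX4 and CKX5 rose and CKX11 did not pass (0.75 ± 0.25, adjusted p = 0.215). Against control1 alone CKX3 rose by 2.95, CKX4 by 1.88 and CKX5 by 2.49. Of 8 tested LOG genes, whose enzymes release active cytokinin, LOGL6 rose, by 1.95 ± 0.21. The share called higher under BAP over all tested probe sets was 0.817%. The type-A regulators RR1, RR2, RR4, RR5, RR6 and RR9, with CKX3, CKX5, LOGL6 and the expansin gene EXP2, were the 10 probe sets that met the numbers of the rule and were left out of the members by family. Their values come from the contrast that the rule used, so they are no independent support for the members. RR5, CKX3 and LOGL6 had no array but those of BAP above the floor, so they entered the tested set through the group in which they were high.

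**Figure D5:**
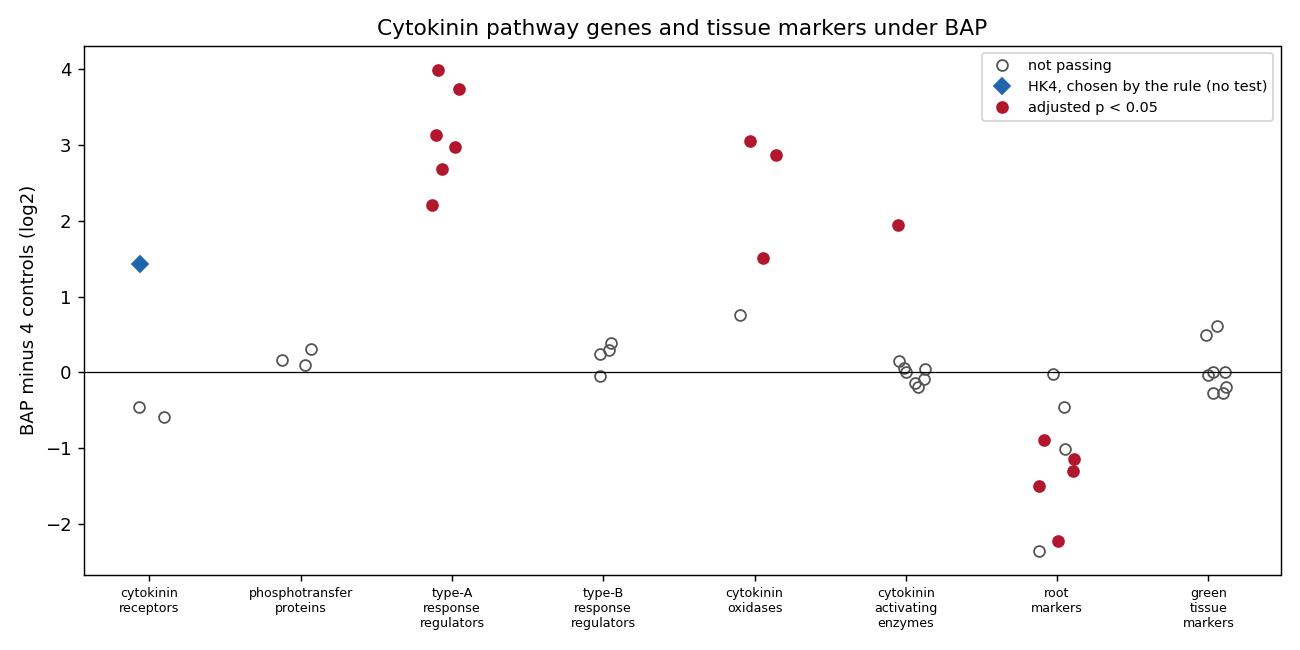
BAP mean minus the mean of the 4 controls (vertical, log2) for each tested gene of 6 cytokinin pathway lists and 2 tissue marker lists, with red points at adjusted p under 0.05 and HK4, which the rule chose, as a blue diamond. The type-A response regulators, CKX3, CKX5 and LOGL6 also met the numbers of the rule, so nothing is read from their red points. All 6 type-A response regulators lie above 2. The root markers lie below 0, but 4 of 9 did not pass, among them NRT2.3 (-0.02 ± 0.55) and IRT1 (-0.46 ± 0.68).

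Both root and green tissue markers were measured, as the whole-seedling label implies. Under BAP 5 of 9 root markers fell and 4 did not pass, with a median of -1.15. Of all 24100 tested probe sets, 310 were called under BAP in either direction. The summed log2 level of the root list ran from 81.4 to 82.1 under BAP, against 91.0 to 94.5 in the controls. None of 8 green tissue markers passed, with sums of 103.6 to 103.8 under BAP, against 102.3 to 104.6 in the controls. In whole seedlings, fewer cells of a type and less RNA per cell cannot be told apart. The part of these root markers in the members' values was not tested.

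The 33 member genes lay on 11 of the chromosomes of the RefSeq assembly ASM3414082v1, with 8 on chromosome 3, 6 on chromosome 4 and 5 on chromosome 1. By the order of protein-coding genes there, 4 genes lay between LOC4335932 and RR1 on chromosome 4. On the same chromosome 14 genes lay between LOC4336400 and LOGL6, and 20 between LOGL6 and RR5. These were the closest pairs among the members and the left-out genes. Neither the spacing nor the chromosome counts were compared with those of all tested genes. LOC4335932 had 9.78 and 9.61 under BAP, against 8.29 and 8.63 in control1 and 7.28 and 7.39 in control2 (1.24 against control1), while RR1 had 9.20 and 9.07 under BAP, against a mean of 5.15 over the 4 controls. The difference was 1.80 for LOC4335932 and 3.99 for RR1, and both were picked by the numbers of the rule.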

How the data were processed

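Whole-seedling RNA (5 µg per array) was labelled with biotin and measured on Affymetrix arrays, per the labels. The deposited log2 values, 1 for each probe set on each array, are GCRMA output of the authors, per the submitters' processing notes. The GCRMA version is not given in the sources used here, and the log base was taken as log2 from the range of the values. GCRMA's background correction sets the lowest values, so differences that start near the bottom of the scale depend on it. Of 57194 rice probe sets, 22436 had 1 gene in the platform annotation, 95 several and 34663 none listed there. Names came from RefSeq (ASM3414082v1).

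Tests covered the 24100 probe sets that exceeded a log2 level of 5 on 2 or more of 16 arrays. Linear models were fitted with limma 3.58.1 in R 4.3.3 (lmFit, eBayes with trend), two-sided, with Benjamini-Hochberg adjustment over all tested probe sets and a threshold of 0.05. The 4 controls were 1 group (9 residual degrees of freedom), or 2 sets when compared with each other (8). With the controls as 1 group, a gap between the control sets enters the ± values and p-values of every contrast in that fit. The procedure was tested on simulated data. The members and gene lists were chosen with earlier results of these data known.

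Named were members with a gene name, the 10 of largest margin, the 3 nearest each threshold on each side, up to 6 by size among those called between control sets or among hormones, and pathway genes. Other genes were named after their values were seen. Promoter sequences were not analysed here.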

Additional observations from a re-analysis of the deposited data

Results flagged for a closer look

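LOC9266089 was the 1 member of 52 in which a single control array stood far from the other 3. Control1 replicate 2 read 9.41, the nearest of the others 9.09 and the farthest 9.04, a gap of 0.874 of the whole range and past Dixon's critical value for 4 samples. BAP gave 10.53 and 10.46, above that array too. Chance flags about 1 in 20 groups of 4.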

How the results depend on the processing

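The choice of members depended most on the margin, the control set and single BAP arrays. The rule gave 98 members at a margin of 0.6, and 80 with control2 alone, of which 33 were among the 52. Leaving out 1 array gave 56 to 131 members, with 131 without BAP replicate 1 and 110 without BAP replicate 2. Fewer arrays to satisfy make the rule easier to meet. The other 9 settings of the rule gave 35 to 70. The median BAP difference of the members was 1.46 log2 units against control1 alone and 1.65 to 1.97 with 1 array left out. Leaving out 1 array gave 6 to 12 calls between the control sets, 2 to 5 for SA against ACC and 3 to 5 for JA against ACC. SA against ACC gave 3 calls with no filter and 3 with a filter at log2 above 7, and JA against ACC gave 4 with that filter, which tests fewer members. The F test among ABA, ACC, SA and JA gave 29 to 38 calls and ABA against ACC 21 to 29 over all alternatives run. The samples share only a replicate number: same-numbered deviations correlated above 0.1 in 10 of 28 pairs of groups. With the replicate number as a block the counts were 15 between the control sets, 38 by the F test, 28 for ABA, 5 for SA and 7 for JA, and the BAP median was 1.81. Counting only the 43 members with at least 2 of the 8 arrays above the floor, or only the 43 that are not _x_at, was chosen after seeing the data and kept every count within 1.5 times. The BAP difference was also refitted for 13 members, the 3 with a gene name and the 10 of largest margin. In 9 of 193 refitted values it moved by at least the SD of the 4 controls. None changed direction, but the rule had put both BAP arrays above every control, so nothing is read from this. The search of promoters for motifs was not run. With 2 arrays per hormone, a difference that missed the threshold is not shown to be absent, and values near the floor have the least certain folds.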
